A study of Mus musculus with 16 samples.

Results

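A set of 9 genes of the p53 pathway was followed through the dentate gyrus transcriptome of aged p16 knockout and wild-type mice, chosen by gene name from the 24421 gene names of the abundance tables, and all 9 passed the filter on low values. They are the family members Trp53 and Trp73, the p53 antagonists Mdm2 and Mdm4, and 5 genes known as p53 targets, Ccng1, Sesn1, Sesn2, Gadd45a and Zmat3. The dentate gyrus is the part of the hippocampus that keeps making neurons in the adult. The 16 libraries came from male C57BL/6 mice aged 1 year, with the dentate gyri of 2 mice pooled in each library and 4 libraries in each of 4 groups. Mice of the genotype p16Ink4a +/+ were sedentary (p16 WT CTL, replicates 1 to 4) or had a running wheel for 12 days (p16 WT RUN, replicates 9 to 12), and p16Ink4a -/- mice were likewise sedentary (p16 KO CTL, replicates 5 to 8) or running (p16 KO RUN, replicates 13 to 16). The knockout removes p16Ink4a in all cells and leaves p19Arf functional. Its line was made in FVB and crossed back to C57BL/6. Variation from mouse to mouse is hidden by the pooling, and in bulk tissue fewer cells of a type and less RNA per cell cannot be told apart.

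As background, p53 is a transcription factor that cells hold at low protein level because Mdm2 marks it for degradation while Mdm4 masks its activation domain. Stress stabilises the protein, mostly without a change of its mRNA, and p53 then switches on genes that halt the cell cycle, repair DNA, limit oxidants or kill the cell, Mdm2 among them, which closes a feedback loop. The p21 protein made from Cdkn1a is the best known of these effectors, and acts beside p16, the product of the deleted locus, as an inhibitor of cyclin-dependent kinases. The p19Arf protein, encoded by the same locus as p16, inhibits Mdm2. p73 is a relative of p53 that is needed for neural stem cell maintenance, for Cajal-Retzius neurons and for multiciliated ependymal cells.

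p53 binds as a tetramer to a pair of decamers, each of 10 bases. The promoter windows of RefSeq (GRCm38.p6, the mm10 assembly) held 11 windows of 8 members, with Zmat3 not among them, from 250 bases before to 50 after a start. A match to the p53 decamer consensus was found in 5 of the 11 windows and in 8.36% of all 32851 windows of that length, searched on both strands, which for this palindromic consensus give the same matches. A pair of decamers with a spacer of at most 13 bases was found in 0 of the 11 windows and in 0.07% of all windows. The 5 matches are shown to let a reader see how the decamer sits before each start, with the decamer in capitals and 30 bases on each side, 5′ to 3′ on the strand of the gene. They lie on chr11:40755432-40755501 (minus strand, Ccng1, 185 bases before the start), chr6:67037408-67037477 (minus, Gadd45a, 40 bases before), chr10:117710905-117710974 (minus, Mdm2, 186 bases before), chr10:41887236-41887305 (plus, Sesn1, 173 bases before a start inside the gene) and chr11:69580254-69580323 (plus, Trp53, 75 bases before).
Ccng1: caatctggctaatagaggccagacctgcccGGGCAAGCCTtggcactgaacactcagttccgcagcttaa
Gadd45a: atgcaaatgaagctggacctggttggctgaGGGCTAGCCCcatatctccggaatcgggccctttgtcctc
Mdm2: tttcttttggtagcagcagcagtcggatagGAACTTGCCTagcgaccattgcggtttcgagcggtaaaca
Sesn1: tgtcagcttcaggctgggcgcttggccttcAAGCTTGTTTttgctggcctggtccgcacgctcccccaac
Trp53: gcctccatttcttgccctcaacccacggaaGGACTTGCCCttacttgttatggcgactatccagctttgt

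Trp73 has a window at each of 2 starts, which give rise to long and amino-terminally shortened p73 proteins, and neither window held the p53 decamer or the E2F motifs TTTCCCGC and TTTGGCGC, searched on both strands. The E2F motifs were found in 1.07% and 0.51% of all windows and in 0 of the 11 windows of the members. The last 100 bases before each start are shown because Trp73 is the member on which the comparison of running mice turns, with the Sp1 motif GGGCGG in capitals. It occurs before the internal start only within these 100 bases, and in 35.66% of all windows. The upstream start lies next to chr4:154139876-154139975 and the internal start next to chr4:154097174-154097273, both on the minus strand. A match is a description of the letters, not a measured site.
Trp73 upstream: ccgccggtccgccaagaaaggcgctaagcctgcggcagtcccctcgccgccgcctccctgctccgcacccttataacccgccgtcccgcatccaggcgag
Trp73 internal: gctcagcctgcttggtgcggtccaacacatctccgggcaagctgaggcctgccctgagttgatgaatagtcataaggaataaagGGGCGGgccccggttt

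Levels are given in scaled TPM, the StringTie abundance corrected for gene length and divided by a factor of 0.920 to 1.03 per library. Median coverage of the libraries relative to one another ranged from 0.621 to 1.95, was lowest in p16 WT RUN (0.621 to 0.877) and highest in the sedentary groups, and read counts were not part of the tables used, so counting errors of low genes are unknown. A group of 3 libraries, p16 WT CTL replicate 2 and p16 KO CTL replicates 6 and 7, stood apart by a low score of 9 nuclear RNAs such as Malat1 and Meg3 (mean log2 of 5.94, 5.21 and 5.05, against 6.77 to 7.18 in the other 13 libraries). Of these, p16 WT CTL replicate 2 and p16 KO CTL replicate 7 also had the highest relative coverage, 1.95 and 1.68. The remaining sedentary libraries were at 0.900 to 1.07, so depth and nuclear RNA coincide in part. Values without the libraries low in nuclear RNA are given beside results of the members and of part of the other genes. Such fits keep only replicates 5 and 8 of p16 KO CTL and replicates 1, 3 and 4 of p16 WT CTL. Set E holds none of the low libraries. Cdkn2a, the locus of the knockout, which also encodes p19Arf, was at 0 to 0.613 scaled TPM in p16 WT CTL and 0 to 0.374 in p16 KO CTL, so its level checks no genotype. The dentate granule neuron markers (8 of 8 above 0 in all 16 libraries) summed to 523 to 1365 scaled TPM, and markers of CA pyramidal neurons, interneurons and glia were also present.

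Over all 16 libraries the mean levels ran from Sesn1 (96.2 ± 12.9 scaled TPM, SD), Ccng1 (51.6 ± 4.56), Mdm2 (49.4 ± 8.15), Trp53 (34.8 ± 2.66), Mdm4 (34.8 ± 6.28), Zmat3 (28.5 ± 2.93) and Sesn2 (17.7 ± 1.25) down to Gadd45a (7.48 ± 1.54) and Trp73 (2.64 ± 0.540). Neighbours in this order overlapped from Ccng1 to Zmat3, with Ccng1 above Mdm2 in 7 of 16 libraries, Mdm2 above Trp53 in 15, Trp53 above Mdm4 in 6 and Mdm4 above Zmat3 in 12. Sesn1, Sesn2, Gadd45a and Trp73 were separated from their neighbours in 16 of 16 libraries. The first place of Sesn1 holds for TPM only, because its coverage per TPM was 0.271 to 0.280 of that of a typical gene (0.893 to 1.00 for the other members). From the coverage its level would be 26.2 (19.0 to 33.2), and the shortest of its 3 transcripts in the GENCODE annotation has 90 bases.

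**Figure D1:**
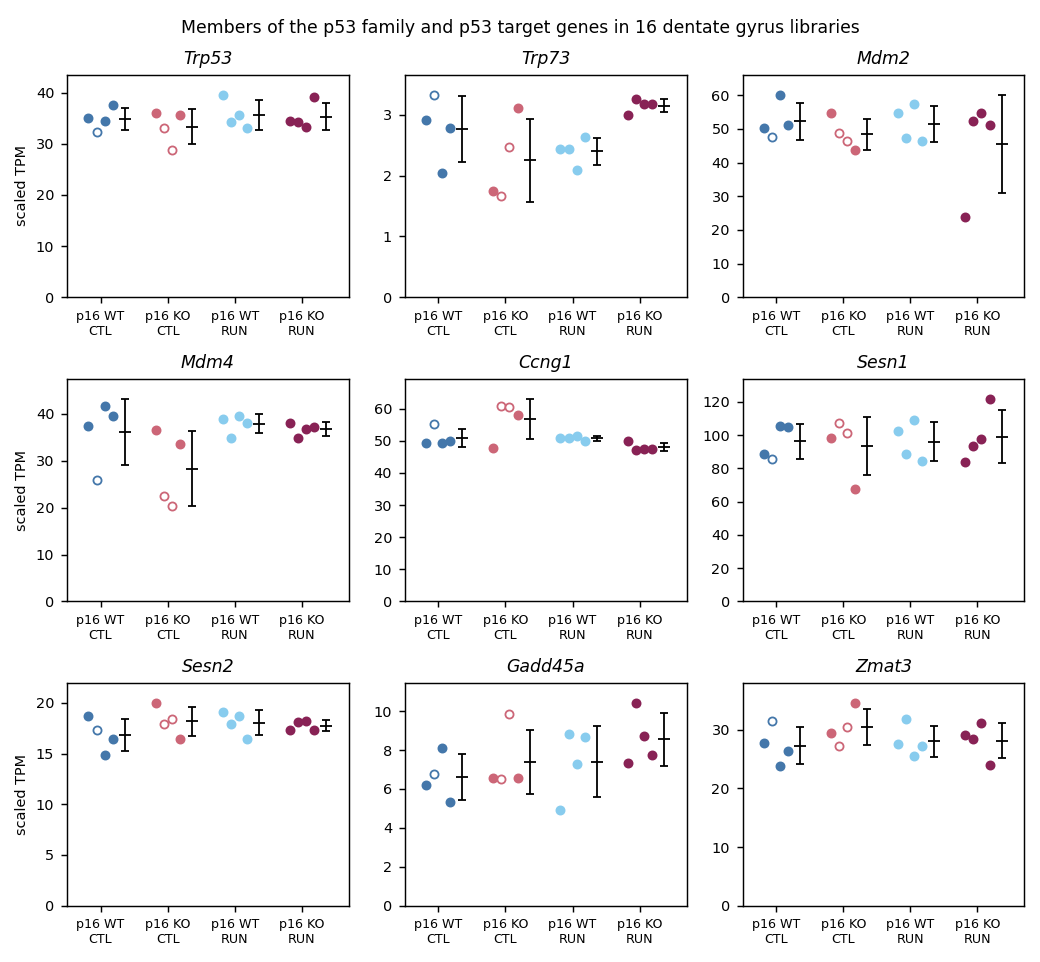
Scaled TPM (linear axis from 0) of the 9 members in the 4 groups. Each point is a library of 2 pooled mice in the order of the replicate numbers, open points are the 3 libraries low in nuclear RNA, and the bar beside each group is the mean with its SD (n = 4). Trp73 in p16 KO RUN lies between 3.00 and 3.26, above all 4 libraries of p16 WT RUN, Mdm4 is lowest in the open points, and 1 Mdm2 value in p16 KO RUN lies at 23.7.

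The question of the study is which genes move with the response of neural stem cells that a running wheel brings about when p16 is missing. Set A compared running with sedentary knockout mice (p16 KO RUN to p16 KO CTL), and Set C did the same in the wild type (p16 WT RUN to p16 WT CTL). The genotypes were compared among sedentary mice by Set B (p16 KO CTL to p16 WT CTL) and among running mice by Set E (p16 KO RUN to p16 WT RUN), while Set D set p16 KO RUN beside p16 WT CTL. Genes are called here at an unadjusted p under 0.05 in limma, the threshold of the study. Set A called 3 of the 9 members, against 18.5% of the 17317 genes tested, with Trp73 and Mdm4 higher (10.7% of all genes were called higher) and Ccng1 lower in p16 KO RUN (7.74% were called lower). Set B called 0 of 9 (6.69% of all genes), Set C 0 of 9 (4.81%), Set D 1 of 9, Gadd45a (8.63%), and Set E 1 of 9, Trp73 (3.87%, with 2.11% called higher). The interaction, the effect of running in the knockout minus that in the wild type over all 16 libraries, called 2 of 9 (5.48%), with a positive value for Trp73 (2.95% of all genes) and a negative one for Ccng1 (2.54%). No member had an adjusted p under 0.05 in any of these tests, against 0.0173% of all genes in Set A, 0.00577% for Set E and 0% elsewhere (limma, Benjamini-Hochberg over 17317 genes). The smallest adjusted p among the members was 0.215 for Set A, 0.625 for Set B, 0.986 for Set C, 0.551 for Set D, 1 for Set E and 0.797 for the interaction. Libraries of the groups compared did not overlap for 2 of 9 members in Set E, Trp73 and Ccng1 (2.46% of all genes), and for 0 of 9 in Set A (10.4%), Set B (2.7%), Set C (3.34%) and Set D (5.68%). Sets A, D and E share the libraries of p16 KO RUN, and Sets A and B the libraries of p16 KO CTL on opposite sides.

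Without the 3 libraries low in nuclear RNA, an alternative chosen after the data were seen, Set A called 0 of 9 members (8.49% of all genes), Set B 1 of 9, Zmat3 (6.68%), Set C 0 of 9 (5.88%), Set D 0 of 9 (11.2%) and the interaction 0 of 9 (7.25%). The median log2 fold change over the 9 members was 0.08 for Set A (0.02 over all genes), -0.06 for Set B (-0.01 over all), 0.03 for Set C (0.00386 over all), 0.05 for Set D (0.00379 over all) and -0.01 for Set E (0.00316 over all). It turned sign in the fits that omit the low libraries, to -0.03 for Set A, 0.00496 for Set B, -0.00661 for Set C and -0.02 for Set D.

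**Figure D2:**
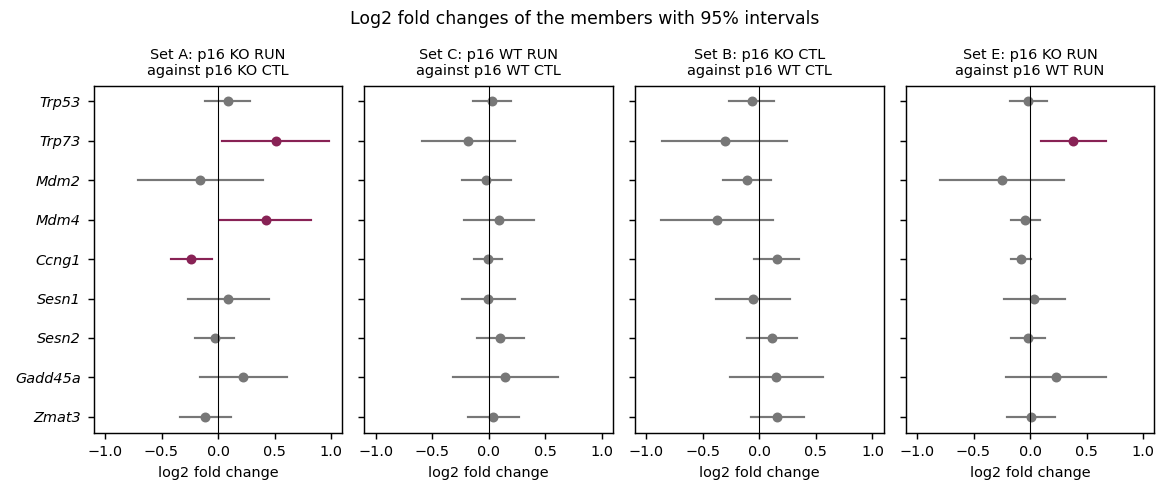
Log2 fold changes (horizontal axis) of the 9 members with their 95% intervals from limma in Sets A, C, B and E, with 4 libraries in each group and members of an unadjusted p under 0.05 in purple. Trp73, Mdm4 and Ccng1 are purple in Set A, Trp73 alone in Set E, and no member in Sets B and C.

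Trp53 (chr11:69580359-69591873 of mm10, plus strand) encodes p53 itself, and its mRNA was called in none of the sets. It was at 35.0, 32.3, 34.5 and 37.6 scaled TPM in p16 WT CTL and at 36.0, 33.0, 28.7 and 35.7 in p16 KO CTL. The p16 WT RUN libraries were at 39.6, 34.2, 35.6 and 33.0, and the p16 KO RUN libraries at 34.4, 34.2, 33.4 and 39.2. All groups overlapped, and the 3 libraries low in nuclear RNA held the 3 lowest values of the 16, from 28.7 to 33.0 against 33.0 to 39.6 in the others. The log2 fold change was 0.08 in Set A (95% interval -0.12 to 0.28), -0.07 in Set B (-0.27 to 0.13), 0.03 in Set C (-0.14 to 0.20) and -0.01 in Set E (-0.18 to 0.15). With the low libraries left out the sign turned in Sets A (-0.03), B (0.00496) and C (-0.00661), none called. p53 is set mostly at the protein level, which was not measured here.

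Trp73 (chr4:154056249-154140208, minus strand, 64.8 Mb from Cdkn2a on the same chromosome) encodes p73, and was higher in running knockout mice than in running wild-type mice. It was at 2.91, 3.33, 2.04 and 2.79 scaled TPM in p16 WT CTL and at 1.75, 1.67, 2.47 and 3.12 in p16 KO CTL. Among running mice the values were 2.44, 2.44, 2.09 and 2.63 in p16 WT RUN, with 3.00, 3.26, 3.17 and 3.17 in p16 KO RUN. The 4 libraries of p16 KO RUN lay within a narrow band above all 4 of p16 WT RUN, while they overlapped both sedentary groups. In Set E the log2 fold change was 0.38 (SE 0.13, 95% interval 0.09 to 0.67, p = 0.0149, adjusted p = 1), with an exact two-sided permutation p of 0.0286, the smallest that 35 splits of 8 libraries can give. Trp73 ranked at place 176 of 17317 by p. With 1 library left out the value ran from 0.32 to 0.43 with an unadjusted p under 0.05 in 8 of 8 fits, and the call was lost with all 16 libraries in one fit, where the SE was 0.19.

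In Set A the log2 fold change of Trp73 was 0.51 (SE 0.21, 95% interval 0.04 to 0.98, p = 0.0377, adjusted p = 0.253, exact permutation p = 0.0571), and in Set C it was -0.18 (-0.59 to 0.23), or -0.09 without the low replicate. The interaction was 0.69 (SE 0.27, adjusted p = 0.797). Trp73 was -0.31 in Set B (-0.86 to 0.25) and 0.20 in Set D (-0.17 to 0.57), or -0.12 and 0.30 without the low libraries, so against sedentary wild-type mice it did not pass the test. The Set A value was 0.41 (SE 0.24, adjusted p = 0.664) without the 3 libraries low in nuclear RNA, of which p16 KO CTL replicates 6 and 7 are in this set, and the interaction was then 0.50 (SE 0.29, adjusted p = 0.721), both without a call. The call in Set A was also lost without any 1 of p16 KO CTL replicates 5 and 6 and p16 KO RUN replicates 13 to 16 (0.39 to 0.53), and that of the interaction without p16 KO CTL replicate 6 (0.57). Under quantile normalization both calls were lost, with 0.33 in Set A (SE 0.20, adjusted p = 0.401) and 0.55 in the interaction (SE 0.28, adjusted p = 0.799). The study selected Trp73 on these same samples, so these values are no independent evidence of its direction. The antisense gene Trp73os overlaps Trp73. The library kit marks strand, but whether the abundances used it is not given in the sources used here.

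Trp73 is a known marker of Cajal-Retzius neurons and of ependymal cells, and lists of their other markers were set beside it. Of 8 Cajal-Retzius markers, all above 0 in all 16 libraries, 2 were higher in Set A (Reln by 0.41 and Cacna2d2 by 0.35 on the log2 scale), or 25% against 10.7% of all genes called higher, and 1 in Set E (Calb2 by 0.46), or 12.5% against 2.11%. In the interaction, where Trp73 was called too, all 8 values were positive and 2 were called (Ebf3 by 0.71 and Reln by 0.25), against 2.95% of all genes called higher. Without the 3 low libraries 1 of 8 was called in Set A (Reln, 0.35, against 4.9% of all genes called higher), Cacna2d2 was 0.36 (SE 0.18), and 0 of 8 were called in the interaction. Their summed level ranged over 192 to 251 scaled TPM in p16 WT CTL and 194 to 290 in p16 KO CTL. Running mice ranged over 168 to 239 (p16 WT RUN) or 209 to 325 (p16 KO RUN). Most of this sum came from Calb2, the gene called in Set E. Alone it was at 153 to 211 in p16 WT CTL and 156 to 253 in p16 KO CTL. It was at 125 to 190 in p16 WT RUN and 162 to 274 in p16 KO RUN, so the sum mostly follows that 1 gene. The transcription factors Lhx1 and Lhx5, which define these cells, were at most 0.474 and 0.410 scaled TPM in any library, and were not called in Sets A and E, while Lhx1 was lower in Set B (-1.26, or -1.42 without the low libraries). Of 10 ependymal markers, 0 were called in Set A with or without the low libraries, and 1 was higher in Set E (Rarres2 by 0.64), or 10% against 2.11% of all genes called higher. Set B called 2 higher and 0 lower (20%, against 6.69% of all genes called in either direction), or 4 higher without the low libraries (40%, against 3.19% called higher). Set C called Foxj1 higher (0.50), or 10% against 4.81% in either direction, and Set D 3 higher (30%, against 8.63% in either direction), or 4 higher without the low replicate (40%, against 5.92% called higher). In the interaction 3 of 10 were positive, with a median of -0.55, and 0 were called. These markers had sums of 14.5 to 25.6 for p16 WT CTL, 28.7 to 44.3 for p16 KO CTL, 18.6 to 36.1 for p16 WT RUN and 25.9 to 47.2 for p16 KO RUN. Foxj1, the master regulator of motile cilia, was at 5.92 ± 0.826 scaled TPM (SD, n = 4) in p16 WT RUN, against 6.51 ± 1.02 in p16 KO RUN. The part of these cells in the Trp73 values was not tested.

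Mdm2 (chr10:117688875-117710758, minus strand), the ubiquitin ligase that degrades p53 and is itself a p53 target, was at 50.2, 47.5, 60.1 and 51.2 scaled TPM in p16 WT CTL and at 54.6, 48.6, 46.4 and 43.7 in p16 KO CTL. After running it was at 54.6, 47.4, 57.4 and 46.4 in p16 WT RUN, compared with 23.7, 52.5, 54.7 and 51.1 in p16 KO RUN. All groups overlapped, and p16 KO RUN replicate 13 stood far below every other library. The log2 fold change was -0.16 in Set A (-0.71 to 0.39), -0.11 in Set B (-0.32 to 0.10), -0.02 in Set C (-0.24 to 0.19) and -0.25 in Set E (-0.80 to 0.30). Without replicate 13 it turned to 0.13 in Set A and 0.04 in Set E. Omitting the low libraries instead left it at -0.18 for Set A, -0.14 for Set B and -0.07 for Set C.

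Mdm4 (chr1:132986105-133030587, minus strand), which binds p53 and blocks its activation domain without degrading it, showed the widest spread among libraries after Gadd45a and Trp73, with a coefficient of variation of 18.1%. It was at 37.4, 25.9, 41.6 and 39.5 scaled TPM in p16 WT CTL and at 36.6, 22.5, 20.4 and 33.6 in p16 KO CTL. The p16 WT RUN libraries were at 39.0, 34.9, 39.6 and 38.0, and the p16 KO RUN libraries at 38.1, 34.8, 36.8 and 37.3. The 3 libraries low in nuclear RNA held its 3 lowest values, 20.4 to 25.9 against 33.6 to 41.6 in the other 13, and all groups overlapped. In Set A the log2 fold change was 0.42 (SE 0.18, 95% interval 0.02 to 0.82, p = 0.0413, adjusted p = 0.259, exact permutation p = 0.0571). Without the low libraries it was 0.07 (SE 0.07, adjusted p = 0.803), and with the nuclear RNA score as a covariate 0.05 (SE 0.06, adjusted p = 0.858), so the call and most of the size went with those libraries. The call was also lost without any 1 of p16 KO CTL replicates 6 and 7 and p16 KO RUN replicates 13 to 16 (0.28 to 0.45).

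In Set B Mdm4 was -0.37 (-0.87 to 0.12), in Set C 0.09 (-0.22 to 0.40), in Set E -0.04 (-0.17 to 0.08) and in the interaction 0.33 (-0.18 to 0.84). The Set B value passed the threshold without p16 WT CTL replicate 2 (-0.52) and without p16 KO CTL replicate 5 (-0.51), and the interaction without p16 WT CTL replicate 2 (0.48). With all 3 low libraries left out Set B gave -0.17 (SE 0.08, adjusted p = 0.663), Set C -0.06 (SE 0.07) and the interaction 0.13 (SE 0.09, adjusted p = 0.772), none called. Among 14437 genes averaging 1 TPM or more, 1444 (10.0%) had a Pearson r over 0.8 with Mdm4 across the 16 libraries, against 2 genes for Trp73. The 3 most alike were Usp48 (r = 0.993), Dusp11 (r = 0.991) and Trank1 (r = 0.991), and these correlations are a description over libraries that share the low nuclear RNA.

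**Figure D3:**
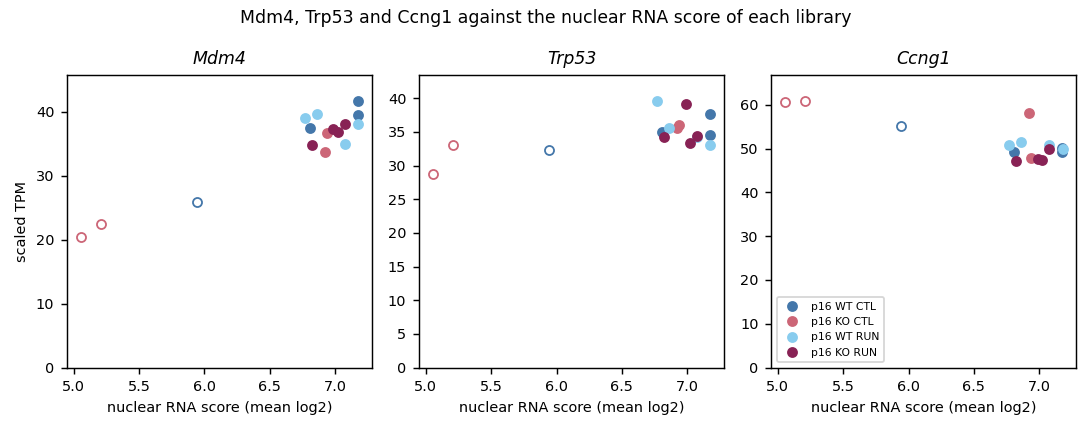
Scaled TPM (vertical axis, linear from 0) of Mdm4, Trp53 and Ccng1 in the 16 libraries against the nuclear RNA score (horizontal axis, mean log2 scaled TPM of 9 nuclear RNAs), coloured by group, with open points for the 3 libraries low in nuclear RNA. Mdm4 is at 20.4 to 25.9 in the open points and at 33.6 or more in the filled ones, and Ccng1 is at 55.1 to 60.8 in the open points.

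Ccng1 (chr11:40748552-40755286, minus strand) encodes cyclin G1, a p53 target that recruits a phosphatase to Mdm2, and was lower in running than in sedentary knockout mice. It was at 49.2, 55.1, 49.2 and 50.0 scaled TPM in p16 WT CTL and at 47.8, 60.8, 60.7 and 58.1 in p16 KO CTL. Among running mice the values were 50.8, 50.8, 51.5 and 49.8 in p16 WT RUN, with 49.8, 47.2, 47.3 and 47.5 in p16 KO RUN. In p16 KO CTL 3 of the 4 libraries were above every library of the other groups, 2 of them low in nuclear RNA, while p16 KO CTL replicate 5 lay among p16 KO RUN. In Set A the log2 fold change was -0.24 (SE 0.08, 95% interval -0.42 to -0.06, p = 0.016, adjusted p = 0.215, exact permutation p = 0.0571), and it kept an unadjusted p under 0.05 in 8 of 8 fits with 1 library left out (-0.32 to -0.20), with an adjusted p of 0.0419 without p16 KO CTL replicate 5 and up to 0.417 in the others. Without the low libraries together it was -0.14 (SE 0.09, adjusted p = 0.685), without a call. Set C gave -0.00303 (-0.13 to 0.12) and the interaction was -0.24 (SE 0.10, adjusted p = 0.797), or -0.17 (SE 0.09, adjusted p = 0.707) without the low libraries, where it was not called. The interaction also lost its call without any 1 of p16 WT CTL replicate 1 (-0.22), p16 KO CTL replicate 6 (-0.20) and p16 KO CTL replicate 7 (-0.20).

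In Set E all 4 Ccng1 values of p16 KO RUN lay below the 4 of p16 WT RUN, by a small margin, with a log2 fold change of -0.08 (SE 0.04, 95% interval -0.17 to 0.01, p = 0.0752, adjusted p = 1, exact permutation p = 0.0286). In Set B it was 0.15 (-0.04 to 0.35) and passed without p16 KO CTL replicate 5 (0.24), while it was 0.09 (SE 0.10) without the low libraries. Genes with the pattern most like Ccng1 were Pfdn2 (r = 0.938), Svip (r = 0.938) and Mbd3 (r = 0.928) over 16 libraries.

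Sesn1 and Sesn2 encode sestrins, stress proteins that restrain mTORC1 and limit oxidants. Sesn1 (chr10:41810574-41908436, plus strand) was at 88.7, 85.9, 105.3 and 104.7 scaled TPM in p16 WT CTL and at 98.3, 107.0, 101.0 and 67.8 in p16 KO CTL. After running it was at 102.5, 88.4, 109.0 and 84.6 in p16 WT RUN, compared with 83.8, 93.4, 97.4 and 121.7 in p16 KO RUN. All groups overlapped, and its lowest and highest libraries were p16 KO CTL replicate 8 and p16 KO RUN replicate 16. The log2 fold change was 0.09 in Set A (-0.26 to 0.45), -0.06 in Set B (-0.38 to 0.27), -0.00213 in Set C (-0.23 to 0.23) and 0.04 in Set E (-0.23 to 0.31). Leaving out the low libraries gave 0.27 (SE 0.19) in Set A, -0.28 (SE 0.17) in Set B and -0.05 (SE 0.10) in Set C, none called. The overlapping gene 9930024M15Rik is annotated on the same strand within Sesn1.

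Sesn2 (chr4:132492807-132510456, minus strand, 43.2 Mb from Cdkn2a) was the steadiest member, with a coefficient of variation of 7.08%. It was at 18.7, 17.4, 14.9 and 16.4 scaled TPM in p16 WT CTL and at 20.0, 17.9, 18.4 and 16.4 in p16 KO CTL. The p16 WT RUN libraries were at 19.1, 18.0, 18.7 and 16.4, and the p16 KO RUN libraries at 17.3, 18.1, 18.3 and 17.3. All groups overlapped. The log2 fold change was -0.03 in Set A (-0.20 to 0.14), 0.11 in Set B (-0.11 to 0.33), 0.10 in Set C (-0.10 to 0.31) and -0.02 in Set E (-0.17 to 0.13). The values without the low libraries were -0.03, 0.12 and 0.12 in Sets A, B and C.

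Gadd45a (chr6:67035096-67037407, minus strand), a growth arrest and DNA repair gene, was highest on average in p16 KO RUN. It was at 6.19, 6.75, 8.13 and 5.33 scaled TPM in p16 WT CTL and at 6.57, 6.50, 9.84 and 6.56 in p16 KO CTL. Among running mice the values were 4.90, 8.82, 7.27 and 8.66 in p16 WT RUN, with 7.34, 10.4, 8.75 and 7.73 in p16 KO RUN. All groups overlapped, and p16 KO CTL replicate 7 stood above the others of its group. In Set D the log2 fold change was 0.37 (SE 0.16, 95% interval 0.02 to 0.73, p = 0.0418, adjusted p = 0.551, exact permutation p = 0.0857). The call was lost without any 1 of p16 WT CTL replicates 1, 2 and 4 and p16 KO RUN replicates 14 and 15 (0.27 to 0.39), and 0.39 was the value without p16 WT CTL replicate 2, the only library low in nuclear RNA in Set D. The other values were 0.22 in Set A (-0.16 to 0.61), 0.15 in Set B (-0.26 to 0.56), 0.14 in Set C (-0.32 to 0.61) and 0.23 in Set E (-0.21 to 0.67). The Set A value passed the threshold without p16 KO CTL replicate 7 (0.37), and was 0.36 (SE 0.16) in Set A and 0.02 (SE 0.20) in Set B without all the low libraries, neither called.

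Zmat3 (chr3:32334794-32365665, minus strand), a zinc finger RNA-binding protein induced by p53, was at 27.7, 31.5, 23.8 and 26.3 scaled TPM in p16 WT CTL and at 29.4, 27.3, 30.5 and 34.5 in p16 KO CTL. After running it was at 27.5, 31.8, 25.6 and 27.2 in p16 WT RUN, compared with 29.1, 28.4, 31.2 and 24.0 in p16 KO RUN. All groups overlapped. In Set B the log2 fold change was 0.16 (-0.08 to 0.39), and it passed the threshold without the 3 low libraries (0.30, SE 0.11, adjusted p = 0.663) and without p16 WT CTL replicate 2 alone (0.23). It was -0.11 in Set A (-0.34 to 0.11), 0.04 in Set C (-0.19 to 0.27) and 0.00572 in Set E (-0.21 to 0.22), and Sets A and C gave -0.18 (SE 0.12) and 0.11 (SE 0.09) without the low libraries.

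For the other members the genes of most similar pattern over the 16 libraries, by Pearson r among the 14437 genes, were Vars2 (0.861), Ercc6l2 (0.840) and Tet1 (0.832) for Trp53 and Wdr70 (0.825), Neu1 (0.818) and Zdhhc13 (0.782) for Trp73. They were Gins3 (0.860), Snord15b (0.805) and 4932443I19Rik (0.789) for Mdm2, Pkig (0.921), Gprc5b (0.918) and Pcp4 (0.899) for Sesn1, and Sgms1 (0.801), Nfkbia (0.766) and Gm14288 (0.738) for Sesn2. Gadd45a had Tor3a (0.859), Cacng6 (0.847) and Tspan5 (0.846), and Zmat3 had Hspa4l (0.963), Ociad2 (0.954) and Relb (0.943). The libraries behind these values differ in depth and nuclear RNA, and no member stood among the 3 genes closest to another member.

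Of the closest relatives of the members, 0 of 5 paralogs (Trp63, Ccng2, Sesn3, Gadd45b and Gadd45g) were called in Sets A to E and in the interaction, where 3.87% to 18.5% of all genes were called, and for 5 genes this count is near that background. Trp63, which encodes p63, averaged 1.85 ± 0.234 scaled TPM in p16 WT CTL (SD, n = 4), 1.67 ± 0.323 in p16 KO CTL, 1.38 ± 0.181 after running in the wild type and 1.67 ± 0.219 after running in the knockout. Its log2 fold change was -0.40 in Set C (SE 0.18) and 0.26 in Set E (SE 0.17). Without the 3 low libraries Trp63 was lower in Set C (-0.47, SE 0.18, adjusted p = 0.783), the only paralog called there. This is 1 of 5, or 20% against 5.88% of all genes called in either direction in that fit. Sesn3 (50.1 ± 4.47 scaled TPM in p16 KO RUN) and Ccng2 (50.7 ± 3.23) had levels near those of Ccng1 (48.0 ± 1.22) and Mdm2 (45.5 ± 14.6) in the same libraries.

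Of 40 other p53 target genes, 2 were higher and 5 lower in Set A, a share of 17.5% against 18.5% of all genes. The higher ones were Cdkn1a and Ddb2, a DNA damage recognition gene (0.53), and the 3 lower ones of smallest p were Triap1 (-0.19), the junction and cell death gene Perp (-0.44) and Psrc1 (-0.37). The median over the list was 0.09 in Set A, or 0.01 without the low libraries, and the adjusted p was at least 0.131 (limma, Benjamini-Hochberg). Without the 3 low libraries 3 of 40 were called in Set A, Cdkn1a and Apaf1 higher and Psrc1 lower, a share of 7.5% against 8.49% of all genes, and Ddb2 was then 0.19 (SE 0.11).

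Set B called 3 of the 40 targets (7.5%, against 6.69% of all genes), Perp higher (0.54) and the antiproliferative gene Btg2 (-0.44) and the death receptor Fas (-0.74) lower. Without the low libraries Set B called Btg2 (-0.65) and Apaf1 (-0.77) lower, 5% against 6.68%, while Perp was 0.63 (SE 0.30) and Fas -0.45 (SE 0.29), both without a call. Set C called Cdkn1a higher (2.5%, against 4.81%), and without the low replicate also Btg2 and Ercc5 lower (7.5%, against 5.88%). Set D called Cdkn1a and Plk2 higher and Psrc1 lower (7.5%, against 8.63%), and without that replicate also Btg2 lower (10%, against 11.2%). Set E called 0 of 40, against 3.87% of all genes. The interaction was positive for Btg2 (2.5%, against 5.48%), and without the 3 low libraries also for Apaf1 (5%, against 7.25%).

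Cdkn1a, which encodes p21, was higher in running than in sedentary mice of both genotypes. It was at 8.19, 10.9, 5.85 and 9.90 scaled TPM in p16 WT CTL and at 6.96, 6.73, 7.68 and 8.77 in p16 KO CTL. The p16 WT RUN libraries were at 10.8, 18.1, 10.7 and 11.9, and the p16 KO RUN libraries at 12.5, 19.8, 18.4 and 10.3. Every p16 KO RUN library was above every p16 KO CTL library, whereas 2 p16 WT RUN libraries lay below the highest of p16 WT CTL. The log2 fold change was 0.97 in Set A (SE 0.21, adjusted p = 0.131) and 0.56 in Set C (SE 0.23, adjusted p = 0.985), or 0.91 (SE 0.28) and 0.68 (SE 0.23) without the 3 low libraries, called in both. The interaction was 0.40 (SE 0.33, adjusted p = 0.806), or 0.22 (SE 0.39) without the 3 low libraries, which does not show that the effects of running were alike. Set B gave -0.18 (SE 0.20) and Set E 0.23 (SE 0.24), neither called. The Set B value turned sign without the low libraries, to 0.00269 (SE 0.25).

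A list of 29 symbols of p53 regulators, in which Cop1 and Rfwd2 name the same gene, had 27 genes tested, and in Set A 4 were higher and 1 lower, a share of 18.5%, as among all genes. The higher ones were Trp53bp1, a DNA break protein that binds p53 (0.31 on the log2 scale), Usp7, which removes ubiquitin from Mdm2 and p53 (0.15), the acetyltransferase Crebbp (0.29) and the ubiquitin ligase Huwe1 (0.19). The lower one was Rpl5, a ribosomal protein that can hold Mdm2 (-0.27). In the fit that omits the low libraries 1 of 27 was called in Set A (Rfwd2, 0.26), a share of 3.7% against 8.49% of all genes. Sets B, C and E called 0 of 27, against 6.69%, 4.81% and 3.87% of all genes. Set D called 4 (1 higher, 3 lower, or 14.8% against 8.63%) and the interaction 1 (3.7%, against 5.48%), with a negative value for Rchy1. Without the low libraries Sets B and C each called Trp53inp2 higher, a share of 3.7% against 6.68% and 5.88% of all genes. Set D then called 6 (3 higher, 3 lower, or 22.2% against 11.2%) and the interaction 0 (7.25% of all genes).

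The cell cycle genes that p21 represses through the DREAM complex had the highest share of calls in Set A among the 4 gene lists of the pathway. Of 15 such genes 13 were tested, and 6 were higher and 0 lower in Set A (46.2%, against 10.7% of all genes called higher), in Set E (46.2%, against 2.11%) and in the interaction (46.2%, against 2.95%). Outside p16 KO RUN, Cdk1 averaged 0.024 to 0.073 scaled TPM per group and Ccnb1 0.067 to 0.111. In p16 KO RUN they averaged 0.264 and 0.209, so both passed the filter of 0.1 TPM only through that group. Cdk1 is among the calls of Sets A, D and E and of the interaction. Ccnb1 is among those of Set E and of the interaction, so these shares are partly set by the filter. Set B called 1 higher (Aurka by 0.39), a share of 7.69%, near the 6.69% of all genes called in either direction. Without the low libraries Aurka was 0.47 (SE 0.22) with no call. Set C called 0 (4.81% of all genes), or Ccna2 lower without the low replicate (7.69%, against 5.88%). Set D called 3 higher with and without that replicate, or 23.1% against 8.63% of all genes with it and 11.2% without it. Mki67, the proliferation marker Ki-67, was at 1.47, 0.552, 1.40 and 1.32 scaled TPM in p16 WT CTL and at 0.992, 0.668, 0.534 and 0.841 in p16 KO CTL. It was at 0.935, 1.54, 1.50 and 1.59 in p16 WT RUN, compared with 1.94, 1.83, 2.14 and 2.14 in p16 KO RUN, above every library of the other groups. Its log2 fold change was 1.33 in Set A (SE 0.22, adjusted p = 0.0861) and 0.53 in Set E (SE 0.20, adjusted p = 1).

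Top2a, the topoisomerase of dividing cells, was at 0.374, 0.163, 0.531 and 0.437 scaled TPM in p16 WT CTL and at 0.362, 0.311, 0.534 and 0.283 in p16 KO CTL. The running wild type was at 0.236, 0.223, 0.121 and 0.521, and the running knockout at 0.750, 1.38, 0.840 and 0.940. Its p16 KO RUN libraries were again above all others, by 1.18 in Set A (SE 0.28) and 1.59 in Set E (SE 0.36) on the log2 scale. Cdk1, the mitotic kinase, was at or below 0.156 scaled TPM in the other groups, listed at 0 in 5 libraries, and at 0.196 to 0.370 in p16 KO RUN. Prc1 and Ccna2 were called higher in both sets. The study selected Prc1, Top2a and Mki67 on these samples, so the count is no independent evidence of its direction. Without the 3 low libraries 4 of 13 were higher in Set A (Mki67, Top2a, Cdk1 and Prc1) and 5 in the interaction, against 4.9% and 3.75% of all genes called higher, and the median over the list in Set A was 0.44 in place of 0.94. Cdk1, which passed the filter only through p16 KO RUN, is in both counts.

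**Figure D4:**
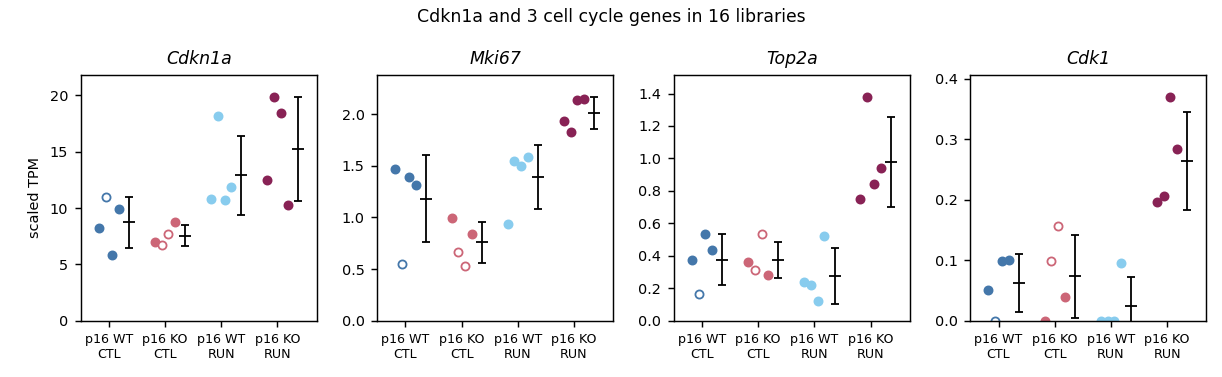
Scaled TPM (linear axis from 0) of Cdkn1a, Mki67, Top2a and Cdk1 in the 4 groups, with 1 point per library, open points for the 3 libraries low in nuclear RNA and bars for the mean with its SD (n = 4). Cdkn1a is higher on average in both running groups than in the sedentary ones, while Mki67, Top2a and Cdk1 are highest in the p16 KO RUN libraries.

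In Set A genes of other marker lists were called too, where 10.7% of all genes were higher and 7.74% lower. Of 9 nuclear RNAs 3 were higher (Malat1 by 1.62 on the log2 scale), of 5 oligodendrocyte markers 3 were lower (Mbp, -0.72) and of 5 microglia markers 2 were lower (P2ry12, -0.42). When the low libraries were left out 2 nuclear RNAs were higher and 1 lower (Malat1 0.59), 3 oligodendrocyte markers were lower (Mbp, -0.65) and 0 microglia markers were called (P2ry12 -0.07, SE 0.09). The interaction of the oligodendrocyte markers was negative for 5 of 5, with 0 called over all libraries (5.48% of all genes) and 5 without the low ones (7.25% of all genes). Of 8 CA pyramidal markers 1 was positive in the interaction, and Pou3f1 (-1.76) and Fibcd1 (-1.275) were called, or 4 of 8 without the low libraries. All 8 granule neuron markers were positive, with 0 called, or Lct, Prox1 and Tdo2 without the low libraries. Of 6 interneuron markers 0 were positive and Pvalb was called (-0.75), with Sst added without the low libraries. Npas4 (2.07) was called of 7 immediate early genes, all positive, and lost its call without the low libraries. The remaining lists had 1 or 2 calls each in Set A. They were Prlr of 9 choroid plexus markers (0.98, with 2 positive and a list median of -0.21) and Lct of 8 granule neuron markers (0.64, with 7 positive). Pou3f1 of 8 CA pyramidal markers (-1.31, with 1 positive) and Gja1 of 5 astrocyte markers (-0.41, with 0 positive) were lower. Of 6 interneuron markers, 3 of them positive, Vip (0.33) and Pvalb (-0.52) were called. Pecam1 of 5 endothelium markers (0.53, with 5 positive) and Npas4 of 7 immediate early genes (1.25, with 7 positive) were higher. Pvalb (-0.32), Pecam1 (0.15) and Npas4 (0.48) lost their calls without the low libraries, while Gja1 was -0.20 (SE 0.08) and still called. Of the 8 CA pyramidal markers 3 were then lower, with Pou3f1 at -2.04, or 37.5% against 8.49% of all genes called in either direction. In that fit p16 KO CTL holds only replicates 5 and 8. They were at 12.9 and 34.2 scaled TPM for Pou3f1, against 3.0 to 9.8 in p16 KO RUN. For Fibcd1 they were at 26.7 and 65.6, so these values lean on replicate 8. Of 5 newborn neuron markers 2 were higher in Set A, Igfbpl1 (1.32) and Eomes (0.98), a transcription factor of intermediate progenitors, and both were called there without the low libraries as well. Both were also higher in Set E (1.30 and 1.92), and Eomes in the interaction (2.07 with and without the low libraries). The study selected Eomes on these same samples, so its values are no independent evidence either. Dcx of the same list, a protein of migrating neurons, was 0.02 in Set A and -0.11 in Set E, neither called. Without the low libraries Dcx was -0.31 in Set A (SE 0.13, no call) and lower in Set D (-0.28). Over all its libraries Set D called Igfbpl1 higher (1.21), which was 1.23 (SE 0.61, no call) without the low replicate. Set E, where 3.87% of all genes were called, called 1 of 5 astrocyte markers (Aqp4, -1.61, with the other 4 positive), 1 of 8 of CA pyramidal neurons (Fibcd1, -0.54, with 3 positive), 1 of 5 of endothelium (Pecam1, 0.26, with 2 positive), 1 of 9 of choroid plexus (Folr1, 1.63, with 5 positive) and 1 of 5 of microglia (P2ry12, 0.22, with 3 positive). Aqp4 spread widely within groups, over 18.0 to 110 scaled TPM in p16 WT CTL and 19.2 to 140 in p16 KO CTL. It was at 86.9 to 109 in p16 WT RUN and 19.4 to 95.5 in p16 KO RUN, so these groups overlapped. The oligodendrocyte markers summed to 1308 to 2306 scaled TPM in p16 KO CTL and 987 to 1338 in p16 KO RUN, and the microglia markers to 274 to 409 and 249 to 299. Their part in the values of the members was not tested.

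**Figure D5:**
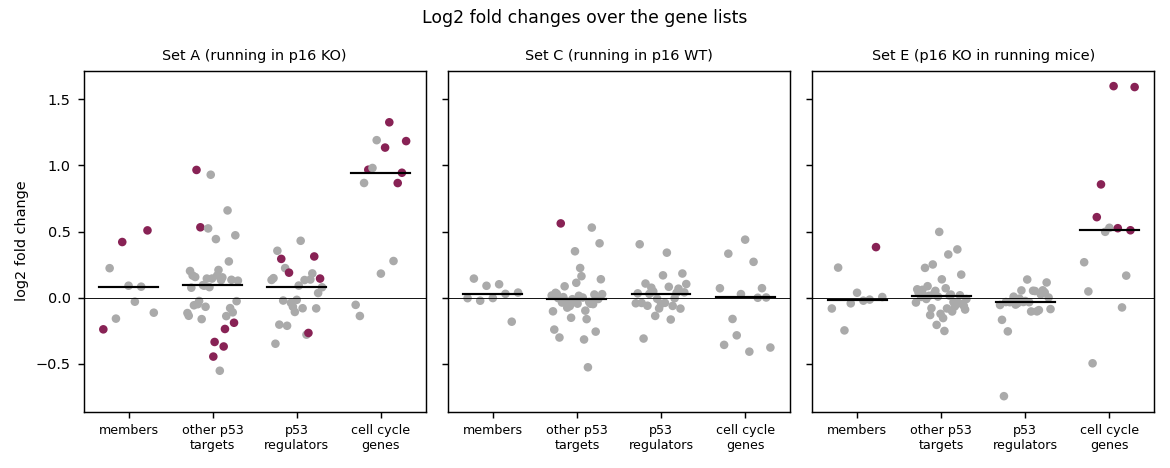
Log2 fold changes (vertical axis) of the genes of 4 lists in Sets A, C and E, with 1 point per gene, genes of an unadjusted p under 0.05 in purple and a line at the median of each list. The cell cycle genes have medians of 0.94 in Set A and 0.51 in Set E, and those of the other p53 targets are 0.09 in Set A, -0.01 in Set C and 0.01 in Set E, with Cdkn1a purple in Sets A and C.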

How the data were processed

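The TPM values, as deposited by the authors, are StringTie abundances per gene after Cutadapt 1.11 (adapters), ERNE (quality trimming) and STAR (alignment to mm10). TPM carries no depth, and the tables hold no read counts, so no count test was run. FPKM and coverage, further columns deposited by the authors per the file headers, served as an alternative and for relative depth. Values of one gene name were summed. Libraries were scaled by the median ratio over 13226 genes, and 17317 genes averaging 0.1 TPM or more entered the test as log2(scaled TPM + 0.1) with limma 3.58.1 (R 4.3.3, variance trend), with 8 libraries per set and 16 for the interaction. P-values were adjusted by Benjamini-Hochberg over all these genes. Fold changes are on the log2(value + 0.1) scale, which understates those of low genes. Single genes were also compared by an exact two-sided permutation test over 35 splits. Replicates are separate pools of 2 mice. The procedure was tested on simulated data. All 9 members were named, and from each of the 4 pathway lists at most 5 genes per set, by smallest p. Cell type markers were named outside this rule, after their values were seen. The members and lists were chosen with earlier results of these data known.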

Additional observations from a re-analysis of the deposited data

Results flagged for a closer look

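In groups of 4 libraries, 36 in all for the 9 members, 4 had a library whose gap to the nearest other, divided by the range of the group, was above the 95% critical value of Dixon's test, which chance gives in about 1 of 20 groups. Mdm2 in p16 KO RUN replicate 13 was at 23.7 scaled TPM, against 51.1 to 54.7 in the other 3 (0.883). Gadd45a in p16 KO CTL replicate 7 was at 9.84, against 6.50 to 6.57 (0.977). Ccng1 was at 55.1 in p16 WT CTL replicate 2, against 49.2 to 50.0 (0.859), and at 49.8 in p16 KO RUN replicate 13, against 47.2 to 47.5 (0.875). The effect of running differed between the genotypes at an unadjusted p under 0.05 for Trp73 (0.69 on the log2 scale, SE 0.27) and Ccng1 (-0.24, SE 0.10), each with an adjusted p of 0.797 (limma), and neither passed without the 3 libraries low in nuclear RNA.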

How the results depend on the processing

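The alternatives were other filters (none, or 1 TPM), other pseudocounts (1 and 0.01), other scalings (none, or quantile), FPKM in place of TPM, the highest value per gene name, a fit of all 16 libraries, a fit without variance trend, the nuclear RNA score as a covariate, and leaving out each library. Omitting the 3 low libraries was chosen after the data were seen. The number of members called was within 1.5 times the first count in 57 of 65 planned settings with all libraries kept and in 41 of 56 that left out 1 library. In Set A 1 of the 3 calls was lost without a filter (Mdm4, 0.42), without variance trend (Mdm4, 0.42) and with quantile normalization (Trp73, 0.33). The number changed further in Set A to 0 with the nuclear covariate, in Set B to 2 (Mdm4 and Ccng1) with all 16 libraries, in Set D to 0 without a filter and with all 16 libraries, in Set E to 2 (Trp73 and Ccng1) without a filter and 0 with all 16 libraries, and in the interaction to 1 with quantile normalization and with the covariate. Without the 3 low libraries the number was 0 for Set A, 1 for Set B, 0 for Set D and 0 for the interaction. With 1 library left out it was 1 to 3 in Set A, 0 to 2 in Set B, 0 to 0 in Set C, 0 to 1 in Set D, 1 to 1 in Set E and 0 to 3 in the interaction. Values that turned sign were uncalled. With TPM as deposited they were Sesn2 (0.0357) in Set A, Ccng1 (0.00969) and Sesn1 (0.0106) in Set C and Zmat3 (-0.00222) in Set E. With the covariate they were Trp53 in Sets A (-0.0343) and B (0.0257) and Ccng1 in Set C (0.0203). Without the 3 low libraries they were Trp53 in Sets A (-0.0255), B (0.00496) and C (-0.00661), and Mdm4 (-0.0617) and Ccng1 (0.0354) in Set C. With 1 library left out Set A gave Mdm2 -0.27 to 0.13, Sesn1 -0.0559 to 0.167 and Sesn2 -0.0766 to 0.0167. Set B gave Sesn1 -0.127 to 0.0917 and Trp53 -0.11 to 0.00177. Set C gave Ccng1 -0.0186 to 0.0354, Mdm2 -0.0769 to 0.0470, Mdm4 -0.0617 to 0.167, Sesn1 -0.0651 to 0.0567, Trp53 -0.0221 to 0.0670 and Zmat3 -0.0246 to 0.110. Set E gave Mdm2 -0.360 to 0.0408, Sesn1 -0.0654 to 0.114, Sesn2 -0.0668 to 0.00647, Trp53 -0.0652 to 0.0378 and Zmat3 -0.0450 to 0.0803. The cause of these changes was not tested. The tables give no counts, so how much counting error Trp73 has at 1.67 to 3.33 scaled TPM is unknown.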
